A study of Mus musculus with 18 samples.

Results

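The collagen genes of the mouse heart were taken as the 44 rows of a table of 23457 genes whose symbol is Col, a number, the letter a and a number. By the type of assembly that their chains form, 11 were classed as fibrillar, 8 as basement membrane and 25 as other. A filter on low counts left 12281 genes for testing, 27 of them collagens, namely 8 of 11 fibrillar, 8 of 8 basement membrane and 11 of 25 other members. The 17 remaining members, none of which was tested, are described with their counts at the end of the account of levels.

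Collagens are secreted proteins whose chains wind around each other along repeats of glycine and 2 further residues, often proline and hydroxyproline. In the ventricle, fibroblasts make most of the fibrillar types I and III, the stiff and compliant fibres of the interstitium, while type IV chains form the sheet of basement membrane around myocytes and capillaries, and type VI chains form beaded microfibrils between them. Rising type I and III collagen mRNA is a standard marker of cardiac fibrosis.

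Whole-transcriptome libraries were made from ventricles of 18 male C57BL/6 mice aged 17 weeks, 6 in each of 3 groups. Every mouse had received a recombinant adeno-associated virus of serotype 6 (rAAV6), so no group was free of vector. One vector carried PLCβ1b, the phospholipase C splice variant used to depress contraction, one carried PLCβ1a, a splice variant without function in the heart, and rAAV6-blank makes no protein product. The study asked whether hearts with depressed contraction change their transcription. The labels name both ventricles, while the study's methods name the left ventricle, so the exact tissue is uncertain. Libraries hold all cells of the tissue, and more cells of a type cannot be told apart from more RNA per cell in any value below.

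The libraries held 13246339 to 24155465 counted reads, of which 3908354 to 7591558 fell on nuclear genes, and hearts of one group correlated at 0.982 to 0.991 across genes. Plcb1, the delivered gene, had lowest, median and highest FPKM (fragments per kilobase of transcript and library depth) of 0.806, 0.986 and 1.14 with the blank vector, 3.18, 3.69 and 5.28 with PLCβ1a and 4.16, 7.82 and 13.2 with PLCβ1b, so both PLC groups were above every blank heart. Summed CPM (counts scaled to a common library size) of 6 cardiomyocyte markers were 46100 to 51700 in all hearts, and those of 6 atrial markers 24.3 to 61.0. Single hearts lay at the end of the range in several collagens. Blank heart 30 was the lowest of all 18 hearts in 7 of the 27 collagens, including Col1a2 and Col3a1, and the highest in Col5a3. PLCβ1a heart 13 was the highest in 6 of the 27. The rule used below to flag a heart far from the others of its group flagged neither of them. As heart 30 is a control, the comparisons with blank are also given without it for the collagens with full statistics. Fits without each of the other hearts are summarised at the end.

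The classes differ in the way their genes are cut into exons, and 1 exon of Col1a2, of Col3a1 and of Col4a1 is shown because it displays the shared repeat. Each is a coding segment of 54 bases on its coding strand, from the GENCODE M21 annotation of GRCm38, the same assembly as mm10. Capitals mark the glycine codons, which open every 9-base repeat, 6 in each exon.
Col1a2, chr6:4515481-4515534, plus strand: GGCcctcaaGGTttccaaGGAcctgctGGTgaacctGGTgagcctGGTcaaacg
Col3a1, chr1:45325360-45325413, plus strand: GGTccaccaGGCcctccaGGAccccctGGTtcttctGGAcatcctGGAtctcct
Col4a1, chr8:11245211-11245264, minus strand: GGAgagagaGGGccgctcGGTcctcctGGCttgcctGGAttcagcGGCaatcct
A length of 54 bases was most frequent in the fibrillar class. It was found in 305 of 647 distinct coding segments of fibrillar members (47.1%), in 16 of 377 of basement membrane members (4.24%), in 147 of 980 of other members (15%) and in 807 of 195537 of genes that are no collagen (0.413%). Lengths that are whole multiples of 9, which keep the repeat in register, made up 82.5%, 42.4%, 54.5% and 14% of the same segments. In Col3a1, 24 of 51 coding segments had 54 bases, against 2 of 52 in Col4a1.

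Several members that share a molecule or a fibril also share a locus, while others do not, such as Col1a1 and Col1a2 on chromosomes 11 and 6. Col4a1 (chr8:11198423-11312826, minus strand) and Col4a2 (chr8:11312829-11449287, plus strand) lie head to head, with starts 3 bases apart in the deposited annotation. Col4a3 and Col4a4 on chromosome 1 start 72 bases apart, and Col4a5 and Col4a6 on the X chromosome 1343 bases apart. Col3a1 (chr1:45311538-45349706) and Col5a2 (chr1:45374331-45503282) end 24625 bases from each other, and Col6a1 and Col6a2 are neighbours on one strand of chromosome 10. The window around the Col4a2 start, which also holds the start of Col4a1, is shown because these chains were among the most abundant collagen transcripts and varied together across hearts. It is the RefSeq window around the gene start in GRCm38.p6, and capitals mark GGGCGG (the core of a GC box) and CCAAT on either strand.
Col4a2, chr8:11312555-11312854, plus strand: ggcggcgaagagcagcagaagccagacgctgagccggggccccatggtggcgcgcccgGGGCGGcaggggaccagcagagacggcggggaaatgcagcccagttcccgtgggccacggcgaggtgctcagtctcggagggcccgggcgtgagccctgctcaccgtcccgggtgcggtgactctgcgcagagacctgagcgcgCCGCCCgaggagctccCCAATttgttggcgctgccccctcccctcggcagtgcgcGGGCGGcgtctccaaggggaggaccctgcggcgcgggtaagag
These letters match GGGCGG at 3 places and CCAAT at 1, with no TATAAA. Among 38 collagen windows in RefSeq, 23 held GGGCGG, 13 CCAAT and 5 TATAAA, on either strand, against 35.7%, 37.4% and 13.6% of all 32851 windows. Not every member had a window, and Col1a1, Col2a1, Col4a3 and Col5a2 were among those without one. The 5 windows with TATAAA included that of Col3a1, which had no match to the other letters.

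Type IV and types I and III made up most of the collagen message of the ventricle. Blank hearts averaged 31.1 ± 2.78 FPKM of Col4a1 (SD, n = 6), 21.2 ± 2.48 of Col3a1, 20.5 ± 1.63 of Col4a2 and 12.2 ± 1.46 of Col1a2, together 58.9% ± 1.38 of the summed collagen FPKM. Col4a1 ranked 710 among 23396 genes by its mean in blank hearts and Col3a1 1056. Col4a1 was above all other members in each blank heart, since its lowest value of 28.3 FPKM exceeded the 23.5 FPKM that was the highest of Col3a1. Col3a1 and Col4a2 overlapped, at 17.3 to 23.5 and 17.9 to 22.4 FPKM.

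The fibrillar class accounted for 34.4% ± 2.3 of the summed collagen FPKM in blank hearts (SD, n = 6). Below Col3a1 and Col1a2 came Col1a1, the other type I chain, at 7.46 ± 0.739 FPKM. The type V chains, which set the diameter of type I fibrils, followed with 3.39 ± 0.362 FPKM of Col5a2, 3.37 ± 0.403 of Col5a1 and 1.45 ± 0.407 of Col5a3. Col5a1 and Col5a2 had nearly equal means and overlapping hearts. Col5a3 was the most uneven fibrillar member above 1 FPKM, with 1.10 FPKM in the lowest blank heart and 2.14 in heart 30. Col27a1 (0.292 ± 0.0569 FPKM) and Col11a2, a type XI chain best known from cartilage (0.285 ± 0.0883 FPKM), were an order of magnitude below Col5a1 and Col5a2.

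Basement membrane members held 45.7% ± 3.01 of the sum, mostly in the ubiquitous Col4a1 and Col4a2 chains. Col15a1, a multiplexin of the basement membrane zone of muscle and capillaries, had 7.11 ± 0.636 FPKM. Its relative Col18a1, from which endostatin is cleaved, had 1.04 ± 0.143 FPKM. Of the chains known for kidney and other specialised membranes, Col4a5 reached 4.70 ± 0.497 FPKM, while Col4a4 (0.694 ± 0.0957), Col4a3 (0.535 ± 0.114) and Col4a6 (0.23 ± 0.05) stayed below 1 FPKM. The 3 head-to-head pairs were unlike in balance. The ratio of Col4a1 to Col4a2 was 1.35 to 1.59 over the 18 hearts, that of Col4a3 to Col4a4 was 0.541 to 1.23, and that of Col4a5 to Col4a6 was 14.2 to 32.3. Reads per heart were 53 to 139 for Col4a3, 53 to 121 for Col4a4 and 13 to 45 for Col4a6. They were 2101 to 4340 for Col4a1 and 1293 to 2896 for Col4a2. The part of these low counts in the wider ranges was not tested.

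The other class gave the remaining 19.9% ± 1.02, led by the type VI chains. Col6a1 had 9.18 ± 0.607 FPKM, Col6a2 8.28 ± 0.786, Col6a3, the long chain that completes the molecule, 3.36 ± 0.245, and Col6a6 1.06 ± 0.208. Col8a1, a chain of the network of vessel walls, had 3.37 ± 0.466 FPKM and its partner Col8a2 0.155 ± 0.0696. Members that decorate the surface of fibrils ranged from Col14a1 (1.42 ± 0.192 FPKM) through Col16a1 (0.766 ± 0.0972) and Col12a1 (0.289 ± 0.0495) to Col20a1 (0.14 ± 0.0528), and the transmembrane Col23a1 had 0.14 ± 0.015. Col6a1, Col6a2, Col1a1 and Col15a1 were neighbours in the order of levels, and the blank hearts of each overlapped those of the next.

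**Figure D1:**
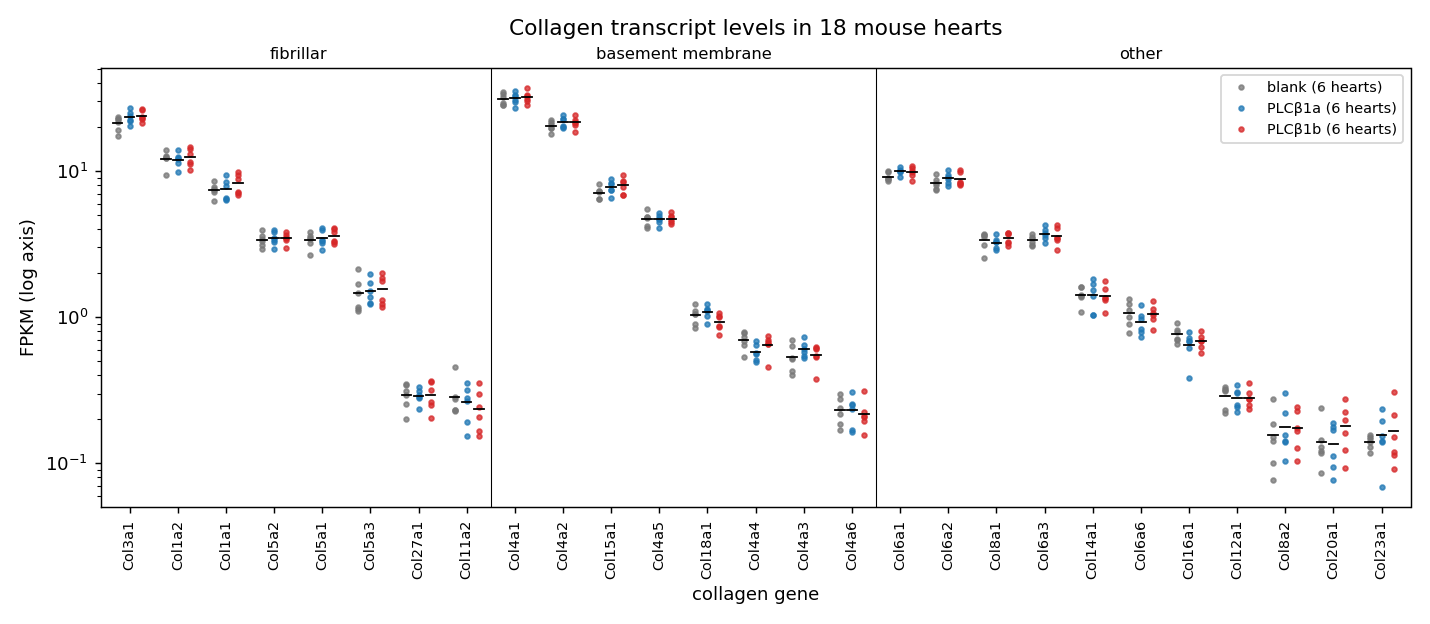
FPKM on a log axis for the 27 collagen genes that passed the filter on low counts, by class and by falling mean in blank hearts. Points are hearts, 6 per vector group, and bars are group means. The 3 groups overlap for every gene, from Col4a1 near 31.1 FPKM to Col23a1 near 0.14.

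The 17 members that did not pass had at most 23 reads in any heart and means over 18 hearts of 0.00155 to 0.0933 FPKM. They included the cartilage collagens Col2a1 (10 reads over all 18 hearts), Col9a1 (10), Col9a2 (15), Col9a3 (48), Col10a1 (4) and Col11a1 (77), and Col17a1 of epithelial anchoring (14). Col6a4 (7 reads), Col19a1 (21), Col24a1 (24), Col26a1 (39) and Col6a5 (43) were as scarce. Col13a1 (109 reads), Col22a1 (126), Col28a1 (126), Col25a1 (141) and Col7a1 of anchoring fibrils (168) were the most read of the 17. Col7a1 shares 36 exonic bases with Mir711 on its strand, where reads are ambiguous, and Col9a3 shares 229 with Tcfl5 on the opposite strand, which the stranded counts keep apart.

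Between PLCβ1b and blank hearts, the question of whether depressed contraction came with a fibrotic collagen response, no collagen gene passed the test. With edgeR's quasi-likelihood test and Benjamini-Hochberg adjustment, 0 of 27 had a false discovery rate (FDR) below 0.1, where 0.0977% of all genes tested had one, and the lowest collagen FDR was 0.521. At an unadjusted p below 0.05 there were 4 of 27 (14.8%, against 7.41% of all genes), all with higher means in PLCβ1b hearts (3.94% of all genes) and 0 with lower ones (3.47%). DESeq2 gave 0 at FDR below 0.1 and 3 at an unadjusted p below 0.05. No collagen separated the 12 hearts into groups without overlap, as 0.48% of all genes did. The sign was positive in 20 of 27 collagens and in 49.6% of all genes. The median log2 fold change was 0.055 over the collagens and -0.001 over all genes, and by class it was 0.078 for fibrillar, 0.044 for basement membrane and 0.118 for other members.

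Col3a1 had lowest, median and highest CPM of 81.8, 95.5 and 110 in blank hearts and of 102, 109 and 117 in PLCβ1b hearts. The PLCβ1b values lay in the upper part of the blank range or, in 2 of 6 hearts, above it. The log2 fold change was 0.19 ± 0.07 (SE, 95% interval 0.05 to 0.33), with an edgeR FDR of 0.521 and an exact two-sided permutation p of 0.0411 before any adjustment. Without blank heart 30 it was 0.15 (FDR 0.572). Exact permutation tests of 6 against 6 hearts, run for each of the 27 collagens in each comparison, cannot go below 0.00216.

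The type I chains, whose mRNA is also a marker of fibrosis, had smaller log2 fold changes than Col3a1. Col1a1 had 26, 29.2 and 30.8 CPM in blank and 27.7, 32.1 and 36.1 CPM in PLCβ1b hearts. The groups overlapped, although PLCβ1b hearts 4, 8 and 10 exceeded every blank heart. Its log2 fold change was 0.15 ± 0.10 (SE, 95% interval -0.05 to 0.35, edgeR FDR 0.780), and 0.13 without blank heart 30. Col1a2 had 43.9, 52.9 and 56.4 CPM in blank and 46.2, 54.3 and 61.8 CPM in PLCβ1b hearts, again with overlap, and the log2 fold change was 0.06 ± 0.07 (SE, 95% interval -0.09 to 0.20, edgeR FDR 0.901), and 0.01 without blank heart 30.

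Of the basement membrane members, 5 of 8 had a log2 fold change above 0, and Col18a1 was the lowest at -0.15 ± 0.10 (SE, edgeR FDR 0.792). Col15a1 had 27.1, 31.7 and 37.4 CPM in blank and 32.1, 36.2 and 40.2 CPM in PLCβ1b hearts, 2 of which were above every blank heart. The log2 fold change was 0.21 ± 0.07 (SE, 95% interval 0.05 to 0.37), with an edgeR FDR of 0.521 and an exact permutation p of 0.0628, and it was 0.24 without blank heart 30. Col4a1 had 148, 165 and 197 CPM in blank and 153, 174 and 198 CPM in PLCβ1b hearts, so the groups covered nearly the same span. For Col4a1 the log2 fold change was 0.07 ± 0.08 (SE, edgeR FDR 0.886), and 0.12 (FDR 0.763) without blank heart 30, which is high in Col4a1 and Col4a2. Col4a2, with 98.9, 105 and 126 CPM in blank and 98.5, 117 and 126 CPM in PLCβ1b hearts, also overlapped throughout, at 0.09 ± 0.06 (SE, edgeR FDR 0.807), and at 0.14 (FDR 0.567) without that heart. In the other class, Col6a1 had 27.5, 28.7 and 33.8 CPM in blank and 29.6, 32.2 and 34.9 CPM in PLCβ1b hearts. There, 2 PLCβ1b hearts exceeded every blank heart, and the log2 fold change was 0.13 ± 0.05 (SE, 95% interval 0.02 to 0.24, edgeR FDR 0.599), with 0.13 also without blank heart 30.

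For the 17 collagens with a blank mean of at least 1 FPKM, the 95% intervals of PLCβ1b against blank ran from -0.35 to 0.56 on the log2 scale, both bounds from Col5a3, that is from 0.785-fold to 1.47-fold. Col5a3 had the widest interval of the 17, and others were narrower, down to -0.07 to 0.14 for Col4a5. The same bounds for PLCβ1a against blank were -0.43 and 0.49, again from Col5a3.

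**Figure D2:**
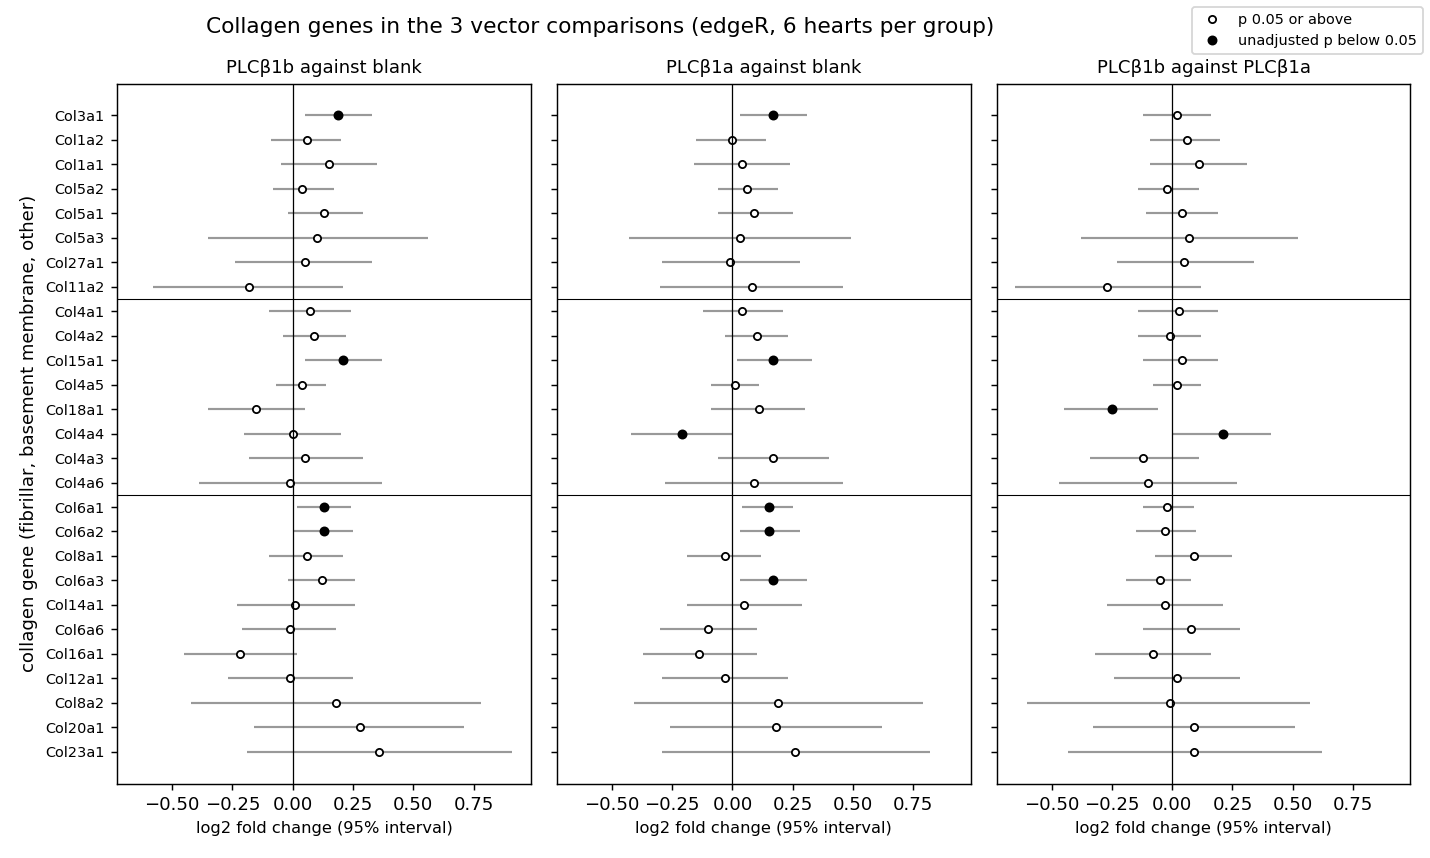
Log2 fold change (points) and 95% interval (lines) of each of the 27 collagen genes in the 3 vector comparisons, from edgeR with 6 hearts per group. Filled points have an unadjusted p below 0.05. None reached an FDR below 0.1, and Col3a1, Col15a1, Col6a1 and Col6a2 are filled in both comparisons with blank, which share the same 6 blank hearts.

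PLCβ1a, the variant without activity in heart, served as the control for expressed protein, and its comparison with blank was much like the former one, with which it shares the blank hearts. Again 0 of 27 collagens had an edgeR FDR below 0.1, where 0.138% of all genes tested had one. An unadjusted p below 0.05 was found for 6 of 27 (22.2%, against 8.58% of all genes), 5 with higher means (4.42% of all genes) and Col4a4 with a lower one (4.16%). DESeq2 gave 0 and 5. No collagen was without overlap, against 0.594% of all genes. The sign was positive in 20 of 27 collagens and in 49.4% of all genes, and the medians of the log2 fold change were 0.083 and -0.002.

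Type VI chains had the lowest p-values. Col6a1 had 31.3, 32.9 and 34.6 CPM in PLCβ1a hearts (lowest, median and highest), 2 of them above every blank heart, and a log2 fold change of 0.15 ± 0.05 (SE, 95% interval 0.04 to 0.25, edgeR FDR 0.377, exact permutation p 0.0433). Col6a3 had 27.7, 29.2 and 33.4 CPM against 23.1, 26.7 and 30.2 in blank hearts, with 2 PLCβ1a hearts above the blank range. Its log2 fold change was 0.17 ± 0.07 (SE, edgeR FDR 0.461, exact permutation p 0.0498). Col6a2 had 24.6, 27.3 and 30.2 CPM against 21.6, 23.7 and 28.8, with 1 PLCβ1a heart above that range, and a log2 fold change of 0.15 ± 0.06 (SE, edgeR FDR 0.470). Without blank heart 30 the log2 fold changes of Col6a1, Col6a2 and Col6a3 were 0.14, 0.14 and 0.21. The 3 chains of the classical type VI molecule thus had the same sign and like values, as they did in PLCβ1b against blank (0.13, 0.13 and 0.12). Both comparisons share the blank hearts, and these chains varied together across hearts, so their values are not separate observations.

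Among fibrillar and type IV members, Col3a1 had a value as large as that of the type VI chains, and Col4a4 a larger one of the opposite sign (-0.21 ± 0.10, SE, edgeR FDR 0.578). Col3a1 had 98.3, 106 and 120 CPM in PLCβ1a hearts and a log2 fold change of 0.17 ± 0.07 (SE, edgeR FDR 0.480), which was 0.13 without blank heart 30. Col1a1 had 24.6, 29.1 and 35.3 CPM, a wider span than the blank hearts on both sides, and a log2 fold change of 0.04 ± 0.10 (SE, edgeR FDR 0.942), which was 0.01 without blank heart 30. Col1a2, at 46.7, 51.6 and 57.6 CPM, had a fold of 0.998 (edgeR FDR 0.995), with a log2 fold change of -0.05 without that heart. Col4a1 at 153, 178 and 190 CPM and Col4a2 at 105, 116 and 128 CPM overlapped the blank hearts, with log2 fold changes of 0.04 ± 0.08 and 0.10 ± 0.06 (SE, edgeR FDR 0.925 and 0.708), and of 0.09 and 0.14 without blank heart 30 (FDR 0.766 and 0.483).

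PLCβ1b and PLCβ1a hearts, the direct comparison of the active and the inactive variant, showed the smallest differences. The groups also differed in Plcb1, with medians of 7.82 FPKM in PLCβ1b and 3.69 in PLCβ1a hearts, so variant and level cannot be told apart. No collagen had an edgeR FDR below 0.1, as no gene of the 12281 did (0.0%), and no collagen was without overlap, against 0.179% of all genes. At an unadjusted p below 0.05 there were 2 of 27 (7.41%, against 4.42% of all genes), Col18a1 with the lower mean in PLCβ1b hearts (2.18% of all genes) and Col4a4 with the higher one (2.24%), and DESeq2 gave 1. The sign was positive in 15 of 27 collagens and 50.5% of all genes, with medians of 0.023 and 0.001.

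Col18a1 had the lowest p. It had 4.56, 5.06 and 5.36 CPM in PLCβ1a hearts and 3.63, 4.22 and 4.73 CPM in PLCβ1b hearts, from 57 to 123 reads per heart. Of the PLCβ1b hearts, 5 of 6 were below every PLCβ1a heart, and heart 17 was within their range. The log2 fold change was -0.25 ± 0.10 (SE, 95% interval -0.45 to -0.06, edgeR FDR 1.0), and the exact permutation p was 0.00649 before adjustment over the 27 collagens and 3 comparisons. Blank hearts, at 4.03, 4.58 and 5.83 CPM, spanned most of both groups. Col4a4 had 3.96, 4.44 and 5.23 CPM in PLCβ1a and 3.70, 5.39 and 5.76 CPM in PLCβ1b hearts. The log2 fold change was 0.21 ± 0.10 (SE, edgeR FDR 1.0), with overlap and with PLCβ1b heart 16 as the lowest of all 12. Col11a2, next by p, had a log2 fold change of -0.27 ± 0.19 (SE, edgeR FDR 1.0) at 1.26 to 2.42 CPM in PLCβ1a and 1.01 to 1.91 CPM in PLCβ1b hearts. The main fibrillar, type IV and type VI chains were close to 0. Col1a1 was at 0.11 ± 0.10, Col1a2 at 0.06 ± 0.07, Col3a1 at 0.02 ± 0.07, Col4a1 at 0.03 ± 0.08, Col4a2 at -0.01 ± 0.06 and Col6a1 at -0.02 ± 0.05 (log2 fold change ± SE, edgeR FDR 1.0 each).

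The composition of the collagen message differed little between vectors. In the order blank, PLCβ1a, PLCβ1b, the fibrillar share was 34.4% ± 2.3, 34.6% ± 1.36 and 35.2% ± 1.22 (SD, n = 6 each), and the basement membrane share 45.7% ± 3.01, 45.4% ± 1.63 and 45% ± 1.32. The summed collagen FPKM was 144 ± 6.92, 150 ± 12 and 153 ± 12.9. These differences were all smaller than 1 SD of the wider group. Type I collagen is built from more Col1a1 than Col1a2 chains, and the ratio of their FPKM was 0.614 ± 0.0285, 0.626 ± 0.0577 and 0.657 ± 0.029 in the same order of groups. The ratio of Col1a1 to Col3a1, the type I to type III balance, was 0.354 ± 0.0343, 0.321 ± 0.0397 and 0.344 ± 0.0346. Ratios of Col4a1 to Col4a2 (1.52 ± 0.0577, 1.46 ± 0.0686 and 1.49 ± 0.0463) and of Col6a1 to Col6a2 (1.11 ± 0.0547, 1.12 ± 0.0522 and 1.12 ± 0.0747) overlapped between all groups.

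Within groups, single hearts differed in several collagens at once. Blank heart 30 was 0.34 below the 18-heart mean of log2 CPM for Col3a1, the lowest of all hearts. It had 0.66 more Col5a3 than that mean, with 16 hearts lower than it in Col4a1 and 15 in Col4a2. Other type IV chains were not high in it, with 0 hearts lower in Col4a5, 2 in Col4a3, 3 in Col4a4 and 8 in Col4a6. In heart 30 the summed endothelial list of 6 genes was at 428 CPM, with 16 hearts lower, and the leukocyte list at 92.3 CPM, with 12 lower. The fibroblast list of 7 genes was at 631 CPM, with 2 lower, and the mural list of 6 genes at 433 CPM, with 1 lower. The largest parts of these last sums were Gsn and Dcn (medians of 354 and 195 CPM over the 18 hearts) and Abcc9 (236 CPM). No marker of these lists was at 0 in every heart. Among the other blank hearts, 26 and 32 had 21 of the 27 collagens above the 18-heart mean, and hearts 33, 34 and 36 had 9, 9 and 8. Hearts 26 and 32 were also the blank libraries with the fewest reads (13386745 and 13354157). The part of cell composition and of depth in these differences was not tested.

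**Figure D3:**
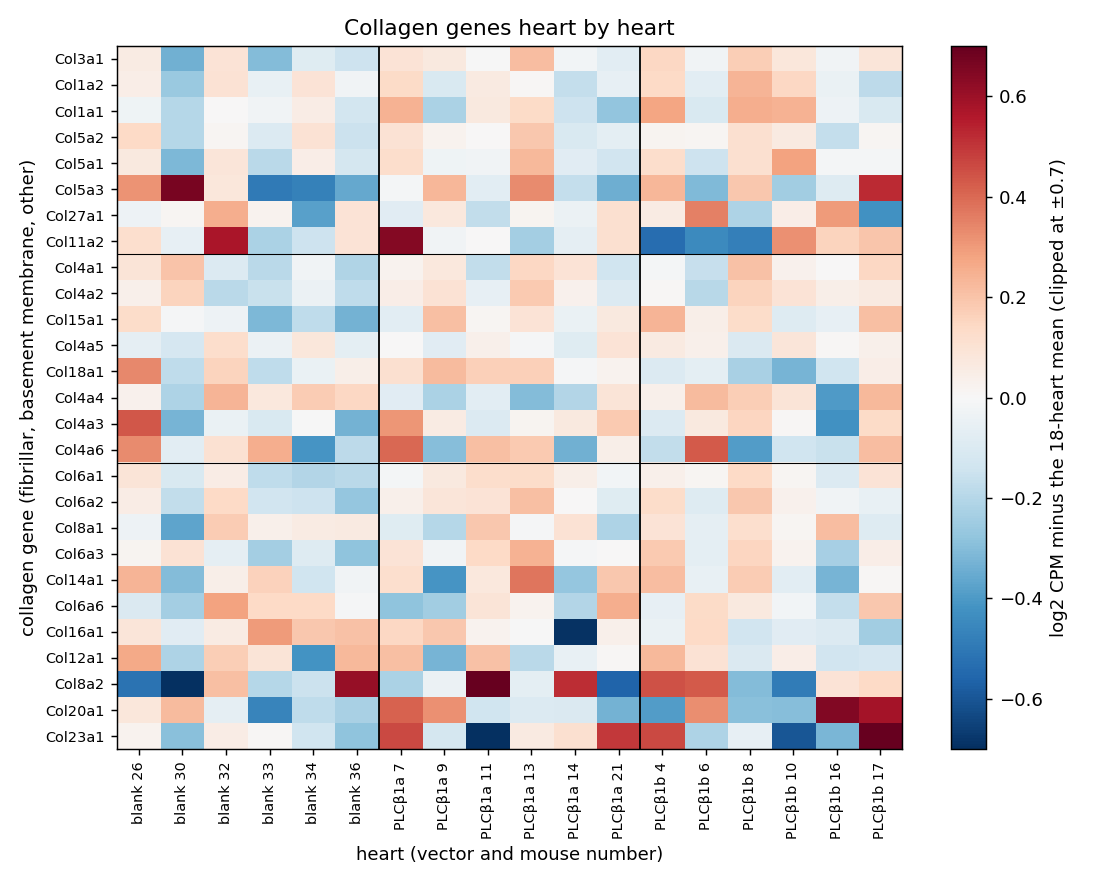
Heat map of log2 CPM minus the mean of all 18 hearts for the 27 collagen genes (rows, by class) in each heart (columns, by vector and mouse number). Color runs from blue, below the mean, to red, above it, and is clipped at 0.7. Blank heart 30 is blue for Col3a1 (-0.34) and Col8a1 (-0.37) and red for Col5a3 (0.66).

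Across the 18 hearts, the pairs of chains of one molecule that were chosen for testing varied together. For 8 pairs of genes the relation was measured by Pearson's r on log2 CPM with 100000 permutations and Benjamini-Hochberg adjustment over the 8 pairs. Pairs share each library and its depth. Col4a1 and Col4a2, a head-to-head pair, had r = 0.91 (permutation p 1e-05, the smallest possible, adjusted 8e-05) and Spearman's rho = 0.88 (adjusted 4e-05). Leaving out the 2 hearts farthest from the median left r = 0.88, and r within the blank, PLCβ1a and PLCβ1b hearts was 0.96, 0.90 and 0.90. With group means removed, r was 0.92 for this pair. The other head-to-head pairs had lower values, at 0.54 for Col4a3 with Col4a4 and 0.22 for Col4a5 with Col4a6. Col4a3, Col4a4 and Col4a6 had far fewer reads, down to 13 in a heart for Col4a6, and the part of this in the lower r was not tested. Col1a1 and Col1a2 had r = 0.83 (permutation p 5e-05, adjusted 0.00013) and rho = 0.88 (adjusted 4e-05), with 0.78 after the 2 farthest hearts were left out and 0.88, 0.83 and 0.95 within groups. For Col6a1 and Col6a2 the values were r = 0.83 (permutation p 3e-05, adjusted 0.00012) and rho = 0.83 (adjusted 0.00013), with 0.76 without the 2 farthest hearts and 0.88, 0.84 and 0.49 within groups.

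Col3a1 and Col5a2, neighbours on chromosome 1 whose proteins meet in the same fibrils, had r = 0.74 (permutation p 0.00027, adjusted 0.00054) and rho = 0.67 (adjusted 0.0058), with 0.68 without the 2 farthest hearts and 0.77, 0.94 and 0.72 within groups. Col6a1 and Col6a3 had r = 0.72 (permutation p 0.00078, adjusted 0.0012) and rho = 0.66 (adjusted 0.0064), with 0.65 without the 2 farthest hearts and 0.54, 0.58 and 0.82 within groups. Type I and type III collagen were more loosely related. Col1a1 and Col3a1 had r = 0.56 (permutation p 0.016, adjusted 0.022) and rho = 0.63 (adjusted 0.0081), with 0.59, 0.64 and 0.76 within groups. The pooled r was 0.45 without PLCβ1b hearts 4 and 8 and 0.50 without blank heart 30 (adjusted 0.053) or PLCβ1b heart 8, so that its side of the 0.05 threshold, though not its sign, rested on those hearts.

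A fibrillar and a basement membrane chain, paired as chains of different molecules, showed no clear relation. Col1a1 and Col4a1 had r = 0.17 (permutation p 0.50, adjusted 0.50) and rho = 0.07 (adjusted 0.80), with 0.04 without the 2 farthest hearts and -0.33, 0.16 and 0.32 within groups. The multiplexins Col15a1 and Col18a1 had a pooled r of 0.30 (permutation p 0.23, adjusted 0.26) and rho of 0.35 (adjusted 0.18), with 0.29 without the 2 farthest hearts. Within groups they were more alike, at 0.58, 0.61 and 0.64, and after group means were removed r was 0.60 (permutation, adjusted 0.011).

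**Figure D4:**
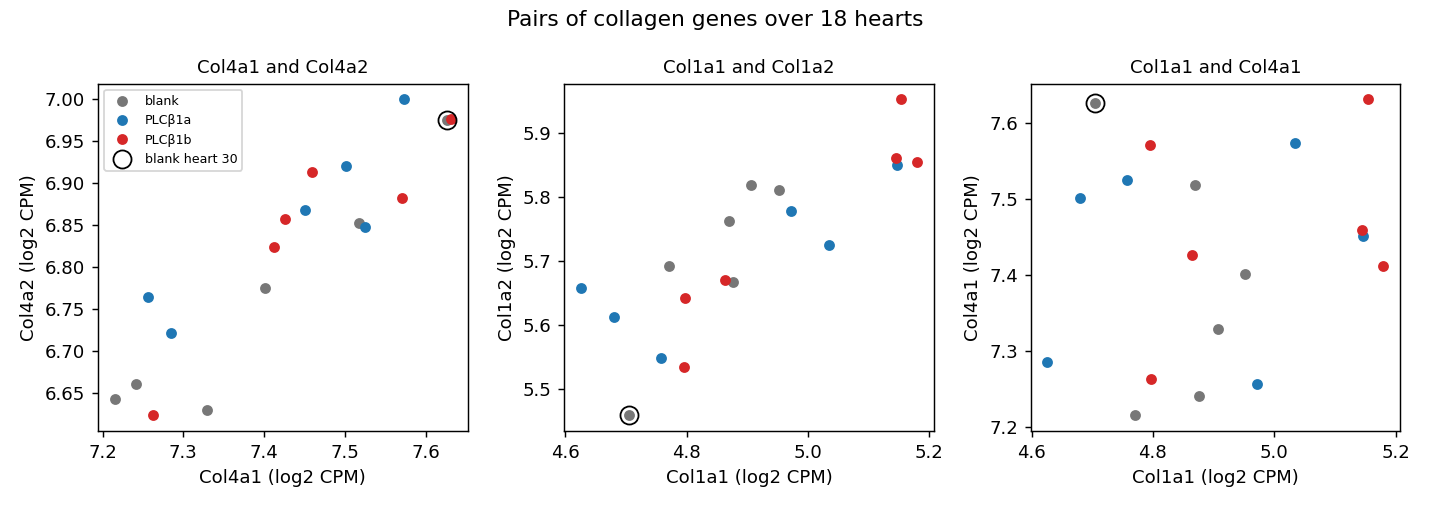
Log2 CPM of Col4a1 and Col4a2, of Col1a1 and Col1a2, and of Col1a1 and Col4a1 in 18 hearts, colored by vector. Points of the first pairs lie along a line (r = 0.91 and 0.83), those of the last do not (r = 0.17). The circled blank heart 30 is low in Col1a1 and Col1a2 and high in Col4a1 and Col4a2.

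The sets in which collagens varied can be described with group means removed, over the 136 pairs of the 17 members with a blank mean of at least 1 FPKM. The median r was 0.29, with 30.1% of pairs above 0.5, against a median of 0.00 and 3.75% for pairs of these members with genes that are no collagen. The latter genes were all those tested, at any level, so the pairs compared were not matched for level. Col1a1, Col1a2, Col3a1, Col5a1 and Col5a2, of the interstitial fibrils, had a median r of 0.76 over their 10 pairs. Col4a1, Col4a2, Col5a3 and Col15a1 had 0.72 over 6 pairs, and the 20 pairs between these sets 0.17, with none above 0.5. Both sets were drawn up after the values were seen and are a description of these 18 hearts only. Col5a3, fibrillar by its class, had r of 0.75, 0.69 and 0.77 with Col4a1, Col4a2 and Col15a1 and 0.67 and 0.61 with Col6a3 and Col6a1, but -0.36 with Col4a5 and 0.38 with Col18a1. Its r with the 5 genes of the interstitial fibrils was -0.24 to 0.30.

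Genes that make, mature, break down and bind collagen were counted from 4 lists. Of 20 tested genes of collagen synthesis and processing, 19 of procollagen cleavage and crosslinking, 13 of collagen breakdown and its inhibitors and 8 collagen receptors, 0 had an edgeR FDR below 0.1 in any of the 3 comparisons. Of all genes tested, 0.0977% had one in PLCβ1b against blank, 0.138% in PLCβ1a against blank and 0.0% in PLCβ1b against PLCβ1a. A count of 0 of 60 therefore does not set the lists apart from other genes. In PLCβ1b against blank, 7 of these 60 genes had higher and 3 lower means at an unadjusted p below 0.05, where 3.94% and 3.47% of all genes did. The counts were 6 and 2 of 60 in PLCβ1a against blank (4.42% and 4.16% of all genes), and 0 and 2 of 60 in PLCβ1b against PLCβ1a (2.24% and 2.18%). In synthesis, Plod1, a lysyl hydroxylase, had 11.3 ± 0.787 FPKM in PLCβ1b and 12.5 ± 1.36 in blank hearts (SD, n = 6; log2 fold change -0.13, edgeR FDR 0.592), and the galactosyltransferase Glt25d2 1.45 ± 0.204 and 1.29 ± 0.218 (edgeR FDR 0.780). In PLCβ1a hearts Plod2 was at 5.49 ± 0.374 against 5.26 ± 0.624 FPKM (edgeR FDR 0.665) and Plod1 at 11.4 ± 0.755 (edgeR FDR 0.670).

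The lowest p-values against blank came from the list of procollagen cleavage and crosslinking and from that of breakdown. Loxl1, a lysyl oxidase, had 4.10 ± 0.389 FPKM in PLCβ1b, 4.01 ± 0.339 in PLCβ1a and 3.43 ± 0.441 in blank hearts, with log2 fold changes of 0.27 and 0.24 against blank (edgeR FDR 0.223 and 0.281). Lum, or lumican, which binds fibrils and limits their width, had 15.3 ± 1.55, 15.3 ± 1.43 and 13.3 ± 0.988 FPKM, with 0.23 in both (edgeR FDR 0.235 and 0.256). Among genes of breakdown, the metalloproteinase inhibitor Timp4 had 6.79 ± 0.981 FPKM in PLCβ1b and 6.91 ± 1.24 in PLCβ1a against 9.39 ± 1.55 in blank hearts, with -0.42 in both (edgeR FDR 0.259 and 0.256). It overlapped between groups, and was past the threshold with DESeq2 in PLCβ1a against blank and without blank heart 32 in PLCβ1b against blank, where 2 genes of the lists were called. Mmp2, a gelatinase, had 8.62 ± 0.699, 8.64 ± 1.11 and 7.72 ± 0.725 FPKM (edgeR FDR 0.505 and 0.341).

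Of the receptors, Cd93 of endothelium had 12 ± 1.10 FPKM in PLCβ1b, 11.6 ± 0.721 in PLCβ1a and 10.8 ± 0.887 in blank hearts (edgeR FDR 0.564 and 0.644). Itga10 had 0.167 ± 0.035 in PLCβ1b against 0.213 ± 0.0479 FPKM in blank hearts (edgeR FDR 0.791), and the leukocyte receptor Lair1 0.36 ± 0.114 in PLCβ1a against 0.507 ± 0.111 (edgeR FDR 0.504). Between PLCβ1b and PLCβ1a, the 2 lowest p-values of each list belonged to Fkbp10 (log2 fold change -0.22) and Sec23a (-0.07), Tll2 (-0.58) and Loxl2 (-0.22), Mmp15 (0.10) and Mrc2 (0.10), and Lair1 (0.36) and Ddr2 (-0.07), all with an edgeR FDR of 1.0.

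Cell type markers were set beside these values. No gene of the fibroblast, activated fibroblast, endothelial, mural, leukocyte, epicardial, Schwann, cartilage and valve, atrial or cardiomyocyte lists had an FDR below 0.1 with edgeR in any comparison. No adipocyte marker passed the filter. Each of the other lists held 2 to 7 tested genes. Of all genes tested, 0.0977%, 0.138% and 0.0% had such an FDR in the 3 comparisons, so the absence of calls does not set these short lists apart. The fibroblast list had summed CPM of 630 to 682 with blank, 615 to 704 with PLCβ1a and 637 to 693 with PLCβ1b. The activated fibroblast list, with Postn and Acta2, had 88.3 to 105, 84.2 to 119 and 95.7 to 108 CPM, and the endothelial list 374 to 428, 377 to 412 and 388 to 444 CPM. Each list overlapped between all groups, as the collagens did.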

How the data were processed

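RNA was extracted with Trizol from flash-frozen ventricles, ribosomal RNA was depleted and strand-specific paired-end TruSeq libraries were made. The authors aligned reads with TopHat2 2.0.10 to mm10 and deposited HTSeq read counts per gene, which are whole numbers without scaling. They also deposited FPKM values. The program behind the FPKM is not given in the sources used here, although the labels list Cufflinks 2.1. Levels between genes were compared by FPKM, and groups by counts.

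The 27 tested collagens were read from a fit of all genes: TMM scaling, a filter at a minimum count of 10 (filterByExpr) and robust quasi-likelihood tests in edgeR 4.0.16 (R 4.3.3) over 18 hearts in 1 model, with Benjamini-Hochberg adjustment over 12281 genes and a threshold of FDR below 0.1. The script was tested on simulated data. Alternatives were DESeq2 1.42.0, limma 3.58.1 on log2(FPKM + 0.1) and log2(FPKM + 1), upper-quartile scaling, no filter, only the groups compared, mitochondrial genes left out, FDR below 0.05, each heart left out and, chosen after seeing the data, edgeR without robust estimation. Mouse numbers differ between groups, so hearts were not paired. The hearts are labelled as biological replicates. Every collagen that passed the filter is named with its level. Full statistics are given for Col1a1, Col1a2, Col3a1, Col4a1, Col4a2 and Col6a1 and for the 3 lowest p-values of each comparison, and 2 genes of each companion list are named. The members and lists were chosen with earlier results of these data known.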

Additional observations from a re-analysis of the deposited data

Results flagged for a closer look

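Of 81 sets of 6 hearts (27 collagens in 3 groups), 3 held a heart far from the other 5, where chance gives about 1 in 20. In PLCβ1b heart 16, Col5a2 was at 17.1 CPM against 19.4 to 20.9 in the other 5 hearts of the group, a gap of 0.634 of the group's range on the log2 scale. In the same heart, Col4a4 was at 3.70 CPM against 5.04 to 5.76, a gap of 0.694. In PLCβ1a heart 14, which had the fewest reads of all libraries (13246339), Col16a1 was at 2.0 CPM against 3.30 to 3.78, a gap of 0.786. No collagen had an FDR below 0.1 with edgeR between PLCβ1b and PLCβ1a hearts, where 2 had an unadjusted p below 0.05 (DESeq2 gave 0 and 1).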

How the results depend on the processing

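No collagen gene was past the threshold under any of the 9 other settings or the 18 fits that each left out 1 heart. Among those settings, FDR below 0.05 is stricter on the same fit and could not have added a gene. Of 624 recomputed log2 fold changes of the collagens named with full statistics, 610 kept their sign and 14 changed it, all with 1 heart left out. Over those fits Col1a1 ran from -0.03 to 0.09 and Col1a2 from -0.05 to 0.02 in PLCβ1a against blank, and Col3a1 from -0.001 to 0.06, Col4a1 from -0.01 to 0.07, Col4a2 from -0.03 to 0.04 and Col6a1 from -0.04 to 0.005 in PLCβ1b against PLCβ1a. Counts over all genes moved more. PLCβ1b against blank had 12 called genes, 24 with DESeq2, 24 without the filter, 4 and 5 with limma on log2(FPKM + 0.1) and log2(FPKM + 1), 7 at FDR below 0.05 and 2 to 18 with 1 heart left out (2 without blank heart 34 or PLCβ1b heart 17, 4 and 6 without PLCβ1b hearts 4 and 6). PLCβ1a against blank had 17, 33 with DESeq2, 29 without the filter, 10 with only those groups in the fit, 6 and 6 with limma, 10 without robust estimation, 4 at FDR below 0.05 and 3 to 19 with 1 heart left out (3 without blank heart 34 or PLCβ1a heart 11, 7, 8, 9 and 10 without PLCβ1a heart 7, blank heart 32, PLCβ1a heart 14 and blank heart 36). PLCβ1b against PLCβ1a had 0, and 1 with DESeq2, with either limma fit, without robust estimation and without PLCβ1a heart 14 or PLCβ1b heart 8, so 0 to 1. Collagens at an unadjusted p below 0.05 numbered 2 to 7, 1 to 7 and 1 to 2 in the 3 comparisons with 1 heart left out, and 1, 0 and 0 with limma on log2(FPKM + 0.1). The r of Col1a1 with Col3a1 was 0.45 without the 2 farthest hearts and 0.50 to 0.63 with 1 heart left out, and that of Col15a1 with Col18a1 was 0.60 once group means were removed. The ratio of Col6a1 to Col6a3 was 3.08, 3.02 and 3.11 from counts per kilobase of exons, against 2.74, 2.69 and 2.77 by FPKM in blank, PLCβ1a and PLCβ1b hearts, and 3 of 105 recomputed ratios moved by over 1 SD. The causes were not tested.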

Other observations

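The genes whose log2 CPM was most like that of a collagen across the 18 hearts, with group means removed, were listed for 5 members by a rule chosen after seeing the data. For Col4a1 the closest of all tested genes was Col4a2 (r = 0.92), followed by Baiap2 and Slfn5 (both 0.89). For Col3a1 it was Pxdn, a peroxidase that crosslinks basement membrane collagen (r = 0.86), followed by Col5a1 (0.84), Col5a2 and Col6a2 (both 0.79). Col1a1 was closest to Hpgds, a prostaglandin D synthase (r = 0.87), ahead of its partner chain Col1a2 (0.84) and of Cybb (0.82). Col6a1 was closest to Sgip1 (r = 0.84) and then to Col6a2 (0.77), with Lamb1, a laminin chain, at 0.75. Col15a1 was closest to Elk3 (r = 0.84) and Spred1 (0.83), with Col5a3 at 0.77. With 18 hearts and 12281 genes, these values are a description of the libraries, which also share depth.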
